A study of Mus musculus with 13 samples.

Results

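The VEGF and TIE receptor genes, the endothelial junction genes and the first transcription factors of blood and vessel development were followed in differentiating female mouse embryonic stem cells (mESCs) depleted of Smarcc1, a core subunit of the BAF chromatin remodelling complex. The members were chosen by symbol: Kdr, Flt1, Tek, Tie1, Pecam1, Cdh5, Etv2, Tal1 and Lmo2, which are 9 of the 25965 genes in the expression table, each on 1 row. Gene expression was measured by RNA-seq as log2 CPM, the reads of a gene scaled by the mapped reads of its library, without separating the alleles. The mESCs were F1 cells of a cross between FVB/NJ and CAST/EiJ, and all groups share that background. The libraries comprised 1 of undifferentiated cells without a hairpin (Day0) and 12 of days 4, 5, 6 and 7 of differentiation, after the cells were weaned into medium with serum and without LIF. On each of these days 1 library carried a nonsilencing hairpin (Nons), 1 the Smarcc1 hairpin Smarcc1.6 and 1 the Smarcc1 hairpin Smarcc1.7. Virus was added on day 2 and puromycin on day 3. With 1 library per group and day there were no replicate cultures. In the knockdown tests the 4 days stood in as replicates. In the tests of change with day the 3 groups, hairpin groups included, did so as well. The p-values thus measure the spread between days and groups, not between replicate cultures. The labels do not say whether the days of a group came from 1 culture. Day0 entered no test.

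Endothelial cells arise from mesoderm that expresses KDR, a receptor for vascular endothelial growth factor A (VEGF-A). Within that mesoderm the haemangioblast, a precursor of both blood and endothelium, is specified by ETV2, TAL1 and LMO2, and the resulting endothelium carries the angiopoietin receptor TEK, its relative TIE1 and the junction proteins PECAM1 and VE-cadherin (Cdh5). Several of these genes are not restricted to endothelium: PECAM1 is also a surface protein of naive mESCs, and FLT1 is made in quantity by trophoblast.

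The guides of both Smarcc1 hairpins are shown because every knockdown value rests on them. They are given 5′ to 3′, as DNA, with the seed (bases 2 to 8) in capitals.
Smarcc1.6 guide: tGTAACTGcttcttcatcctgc
Smarcc1.7 guide: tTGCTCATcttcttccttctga
The Smarcc1.6 guide is complementary over its full 22 bases to coding exon 13 of Smarcc1 (chr9:110177472-110177493, mm10, plus strand), and the Smarcc1.7 guide to coding exon 11 (chr9:110173911-110173932). No GENCODE M21 transcript of any of the 9 genes held a full-length match to either guide, and the Nons guide matched no transcript. Smarcc1 itself was lower in both hairpin groups on every day. From day 4 to day 7 its log2 CPM was 9.10, 8.87, 8.28 and 7.89 in Nons. It was 7.42, 7.40, 7.28 and 7.28 with Smarcc1.6, and 7.96, 7.78, 7.17 and 7.51 with Smarcc1.7. The gap to Nons was thus smallest on day 7 for both hairpins, as the Nons level itself fell. In Day0 it was 8.01.

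The shallowest library (Smarcc1.7 on day 5) held 13993440 mapped reads and the deepest (Smarcc1.6 on day 4) 63548092, so that a gene with 3 reads sat at a log2 CPM of -2.22 in the former and of -4.40 in the latter. These floors cover counting error only. The 3 libraries of day 6 and Day0 stood apart, with 85.27% to 86.52% of mapped reads in genes against 91.65% to 92.61% in the others. As all 3 groups share this on day 6, it cannot be told apart from the day. Of the 9 genes, 7 averaged a log2 CPM of 0 or more on days 4 to 7 and were tested with all 13406 such genes, and Cdh5 and Tie1 did not. The exons of none of the 9 genes overlap those of another gene in GENCODE M21.

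**Figure D1:**
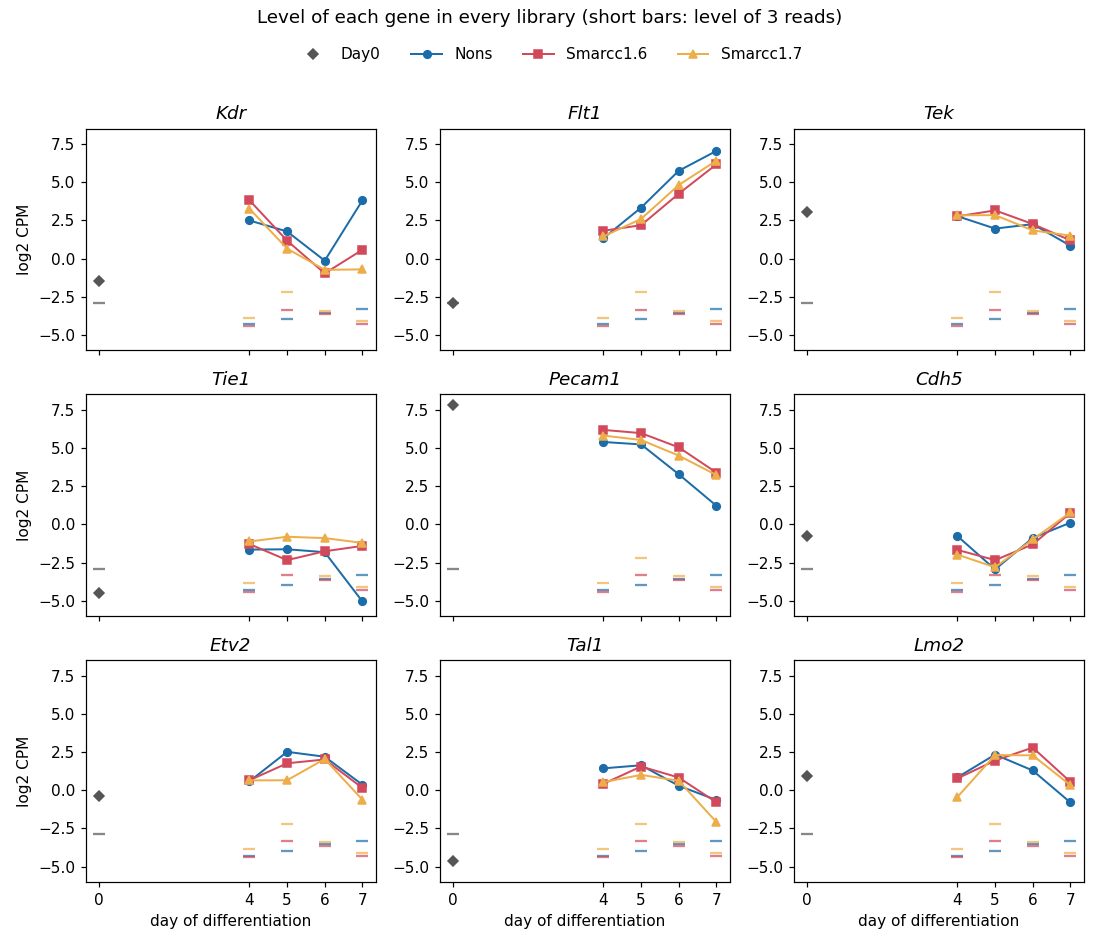
Log2 CPM of each of the 9 genes (y axis) in Day0 and on days 4 to 7 (x axis). Each point is 1 library, lines join the days of a group and short bars mark the level of 3 reads in that library. Flt1 climbs to 7.04 in Nons on day 7, Pecam1 descends from 7.81 in Day0, and Kdr is lowest on day 6 in each group.

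The VEGF receptor genes Kdr and Flt1 followed different courses. Kdr (chr5:75932827-75978458, minus strand) encodes the main signalling receptor for VEGF-A, and Flt1 (chr5:147561604-147726011, minus strand) a receptor that binds VEGF-A and placental growth factor and whose soluble form captures these ligands. Their promoters are shown as the upstream 250 bases of the RefSeq start (GRCm38.p6, minus strand), because the genes are relatives on the same chromosome that diverged in these cells. Capitals mark matches on either strand.
Kdr (chr5:75978456-75978705): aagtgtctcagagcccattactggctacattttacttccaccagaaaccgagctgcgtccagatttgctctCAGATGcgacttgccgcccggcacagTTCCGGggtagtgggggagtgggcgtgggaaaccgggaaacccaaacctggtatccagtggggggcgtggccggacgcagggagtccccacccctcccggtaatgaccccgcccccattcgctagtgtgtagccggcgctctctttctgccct
Flt1 (chr5:147726012-147726261): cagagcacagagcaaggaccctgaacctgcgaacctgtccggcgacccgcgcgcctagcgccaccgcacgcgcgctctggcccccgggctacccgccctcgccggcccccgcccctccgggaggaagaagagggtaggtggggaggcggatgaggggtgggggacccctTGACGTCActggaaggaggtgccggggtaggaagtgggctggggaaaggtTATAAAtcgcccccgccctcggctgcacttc
The E-box was searched as CAGATG, the ETS motif as CCGGAA, the FOX motif as TGTTTA, the cyclic AMP response element (CRE) as TGACGTCA, the TATA box as TATAAA and the motif of GATA factors as AGATAA, all chosen with the members known. The Kdr window held the E-box and the ETS letters, which occurred in 14.4% and 12% of all 32851 windows of that length in the table. The Flt1 window held the CRE letters, found in 1.55% of windows, and the TATA letters, found in 12.4%. The matches lie apart from each other and are a description of the sequence only.

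Kdr had a trough on day 6. In Day0 its log2 CPM was -1.48, from 8 reads. The Nons libraries were at 2.49 on day 4, 1.77 on day 5, -0.14 on day 6 and 3.80 on day 7. The Smarcc1.6 libraries were at 3.81, 1.17, -0.97 and 0.57 on the same days. The Smarcc1.7 libraries were at 3.26, 0.65, -0.74 and -0.71. All 3 groups were thus lower on days 5 and 6 than on day 4, and on day 7 the Nons library alone lay above its own day 4 level. The trough was measured on 19 to 32 reads a library, well over the floor of 3. Between day 6 and day 7 Kdr went from 32 to 414 reads in Nons, where the day 7 level was 15.3 times that of day 6, against 2.91 times with Smarcc1.6 and 1.02 times with Smarcc1.7. On day 7 the hairpin libraries held 0.106 and 0.0437 of the Nons level, whereas on day 4 they held 2.51 and 1.71 times it.

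Kdr was not called in the knockdown. Over the 4 days the knockdown minus Nons difference was -1.10 ± 0.57 (SE) on the log2 scale, with a 95% interval from -2.34 to 0.14 (limma, adjusted p = 0.231). Without the Nons library of day 7 it was -0.18 (limma, adjusted p = 0.808), and without that of day 4 it was -1.82 (limma, adjusted p = 0.0363), so single control libraries decide this value. With voom weights it was -0.20 (adjusted p = 0.855). The knockdown by day interaction was -1.46 ± 0.67 per day (limma, adjusted p = 0.894), and 0% of all genes were called in that fit, with 0 also called when voom weights were used and 745 genes at an unadjusted p under 0.05. None of the 7 tested members was among those 745. The change per day of Kdr was -0.77 ± 0.37 (limma, adjusted p = 0.0980), and it became -1.27 (limma, adjusted p = 0.00195) without the Nons library of day 7.

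Flt1 rose throughout. Day0 held 3 reads, which is the floor, at a log2 CPM of -2.89. The Nons libraries gave 1.33, 3.33, 5.74 and 7.04 on days 4 to 7. Smarcc1.6 gave 1.82, 2.18, 4.24 and 6.16. Smarcc1.7 gave 1.45, 2.59, 4.81 and 6.40. Every library lay above that of the same group on the day before. The day 7 level was 52.4 times that of day 4 in Nons, 20.2 times with Smarcc1.6 and 30.8 times with Smarcc1.7. The change per day was 1.72 ± 0.11 (SE) on the log2 scale (limma, adjusted p = 1.25e-06) and was called in all settings tried. Of all genes tested, 34.9% rose and 25.6% fell with day, and of the 7 members tested 1 rose and 3 fell, so that a call in time was common to most genes.

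Flt1 was lower with both hairpins on days 5, 6 and 7 and higher with both on day 4. The knockdown minus Nons difference over 4 days was -0.66 ± 0.21, with an interval from -1.11 to -0.20, and did not pass the threshold after adjustment (limma, adjusted p = 0.0638). It lay near that threshold, and its side of it depended on the setting. With log2(CPM + 1) it was -0.63 (limma, adjusted p = 0.0488) and with voom weights -0.84 (adjusted p = 0.0112). Without day 4 it was -0.98 (limma, adjusted p = 0.00337), without the Nons library of day 4 -0.98 (adjusted p = 0.00254) and without the Smarcc1.6 library of day 4 -0.76 (adjusted p = 0.0314). Without day 5 it was -0.56 (limma, adjusted p = 0.249), without day 6 -0.47 (adjusted p = 0.284) and without day 7 -0.62 (adjusted p = 0.157). The smooth muscle genes Tagln and Acta2 rose with Flt1 in time. The summed level of 7 mural and smooth muscle markers, none of which was among the members, ran from 7.05 to 916 CPM in Nons, from 8.67 to 1140 with Smarcc1.6 and from 8.13 to 1080 with Smarcc1.7, and was 7.45 in Day0. On the log2 scale it followed Flt1 with a Pearson r of 0.98 and a Spearman rho of 0.97 over 12 libraries, which share their days. Tagln, with up to 56400 reads a library, and Acta2, with up to 8961, weigh most in that sum. No other marker of the list passed 803 reads, and Cspg4, Rgs5 and Myh11 averaged a log2 CPM under 0. The part of cells with Tagln and Acta2 in the Flt1 level was not tested. In bulk RNA, fewer cells of a type and less RNA per cell cannot be told apart.

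The angiopoietin receptor Tek and its relative Tie1 were apart in level, with 53 to 431 reads a library for Tek and 0 to 26 for Tie1 on days 4 to 7. Tek (chr4:94739289-94874976, plus strand) encodes the receptor that angiopoietins bind, and Tie1 (chr4:118471191-118490061, minus strand) a co-receptor without an established ligand of its own. Tek was present before differentiation, at 3.07 from 187 reads in Day0. On days 4 to 7 Nons gave 2.77, 1.96, 2.25 and 0.84, Smarcc1.6 2.76, 3.15, 2.26 and 1.19, and Smarcc1.7 2.83, 2.84, 1.84 and 1.5. The 3 libraries of day 4 were almost level with each other, and the day 7 library was the lowest of each group. Tek fell with a change per day of -0.54 ± 0.10 (limma, adjusted p = 0.000842), a call that was lost without day 7 (-0.33, adjusted p = 0.0722). The knockdown difference was 0.34 ± 0.19, interval -0.07 to 0.76 (limma, adjusted p = 0.270), with 6 of 8 hairpin libraries above the Nons library of their day.

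Tie1 had 1 read in Day0 and from 0 to 26 reads in the other 12 libraries. Its reads on days 4 to 7 were 19, 15, 10 and 0 in Nons, 26, 6, 11 and 22 with Smarcc1.6, and 20, 8, 17 and 22 with Smarcc1.7. The only library of days 4 to 7 under 3 reads was Nons on day 7, against whose floor the hairpin libraries of that day were at least 3.71-fold and 4.28-fold higher. That library sets the difference: the mean log2 difference from Nons was 1.18 ± 1.65 (SD, n = 8) over 4 days, with 0 reads entered as 0.9, and 0.33 ± 0.60 (SD, n = 6) over days 4 to 6. When all 25965 genes were fitted, Tie1 was not called for knockdown (limma, adjusted p = 0.263) or for change per day (limma, adjusted p = 0.319).

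Pecam1, which encodes the adhesion molecule CD31 (chr11:106654217-106750628, minus strand), was the only member called in the knockdown. Its log2 CPM was 7.81 in Day0, on 5007 reads. From day 4 to day 7 the Nons libraries gave 5.39, 5.23, 3.28 and 1.22. The Smarcc1.6 libraries gave 6.18, 5.97, 5.04 and 3.39. The Smarcc1.7 libraries gave 5.81, 5.52, 4.50 and 3.23. All 3 groups descended on each successive day, and on every day both hairpin libraries lay above Nons, by 2.02 and 2.17 log2 units on day 7. Its change per day over the 3 groups was -1.08 ± 0.14 (SE) on the log2 scale (limma, adjusted p = 6.5e-05), called in all settings tried. The Nons level fell 18-fold from day 4 to day 7, against 6.92-fold with Smarcc1.6 and 5.94-fold with Smarcc1.7. This difference in slope, 0.54 ± 0.25 per day, was not called (limma, adjusted p = 0.906).

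Over 4 days Pecam1 was higher in the knockdown by 1.18 ± 0.22 (SE) on the log2 scale, interval 0.69 to 1.67, in 8 of 8 hairpin libraries (limma, adjusted p = 0.00855). That was 1 of 7 tested members called higher and 0 called lower, where 6.88% of all genes tested were called higher and 4.77% lower. With 0 called lower, the members at an unadjusted p under 0.05 in that fit were Pecam1 and Flt1. The call was lost without the day 6 libraries, at 1.07 (limma, adjusted p = 0.0669), and kept without any single library (adjusted p = 0.00399 to 0.0449). In the fit of all 3 groups the Smarcc1.6 minus Nons difference was 1.37 ± 0.24 (limma, adjusted p = 0.00929), a contrast that called 9.3% of all genes, and the Smarcc1.7 minus Nons difference 0.99 ± 0.24 (limma, adjusted p = 0.0601), a contrast that called 2.45%. With the libraries of the other hairpin left out neither difference was called, at 1.37 for Smarcc1.6 (limma, adjusted p = 0.0738) and 0.99 for Smarcc1.7 (adjusted p = 0.13). For Smarcc1.7, where no member was called, Pecam1, Flt1 and Etv2 had an unadjusted p under 0.05 and 0 members were called with voom weights. Between the hairpins Pecam1 differed by 0.38 ± 0.24, interval -0.16 to 0.92 (limma, adjusted p = 0.989). That fit called 0% of genes, as did the fit with voom weights, with 530 genes at an unadjusted p under 0.05 and none of the members among them.

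Most pluripotency markers were also higher in the knockdown. Of 12 such markers, all of them tested, 9 were called higher in the knockdown and 0 were called lower. The 3 not called were Nanog (0.74), Pou5f1 (0.07) and Tbx3 (-0.26). Of all genes tested, 6.88% were called higher and 4.77% lower. The markers had a median log2 difference of 1.00, against -0.01 over all genes. The 4 with the lowest adjusted p were Prdm14 (1.62, adjusted p = 0.00193), Zfp42 (1.11, adjusted p = 0.00250), Esrrb (1.00, adjusted p = 0.00475) and Dppa3 (0.99, adjusted p = 0.00624, limma in each case). Their summed level ran from 1130 to 1770 CPM in Nons, from 1410 to 2980 with Smarcc1.6 and from 1130 to 2470 with Smarcc1.7, and was 5870 in Day0, and none of the 12 was at 0 in all libraries of a group. Over the 12 libraries the log2 of this sum followed Pecam1 with a Pearson r of 0.81 and a Spearman rho of 0.81. On days 4 to 7 Pou5f1 weighs most in this sum, with a mean log2 CPM of 10.11 against 7.53 for Nanog, the next. In Day0 Nanog had more reads, 31571 against 26996 for Pou5f1. Pou5f1 was not called in the knockdown (0.07, limma, adjusted p = 0.604), so the sum says little of the other markers by day. Interactions with day were 0.01 for Prdm14, -0.23 for Zfp42, -0.17 for Esrrb and 0.27 for Dppa3. Over all 12 markers they ran from -0.79 for Tbx3 to 1.15 for Nr0b1. None of the 12 was called in that fit, which called 0% of all genes, and 2 had an unadjusted p under 0.05. The sums by day, weighed most by Pou5f1, are given beside Pecam1 and do not show the called markers by day. On day 4 the sum was 1720 CPM in Nons, 2980 with Smarcc1.6 and 2470 with Smarcc1.7, and on day 6 it was 1770, 1790 and 1900, where Pecam1 was 3.37-fold and 2.33-fold higher with the hairpins. On day 7 the sum was 1130, 1410 and 1130, where Pecam1 differed most, by 4.51-fold and 4.05-fold. The part of cells with these markers in the Pecam1 level was not tested.

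**Figure D2:**
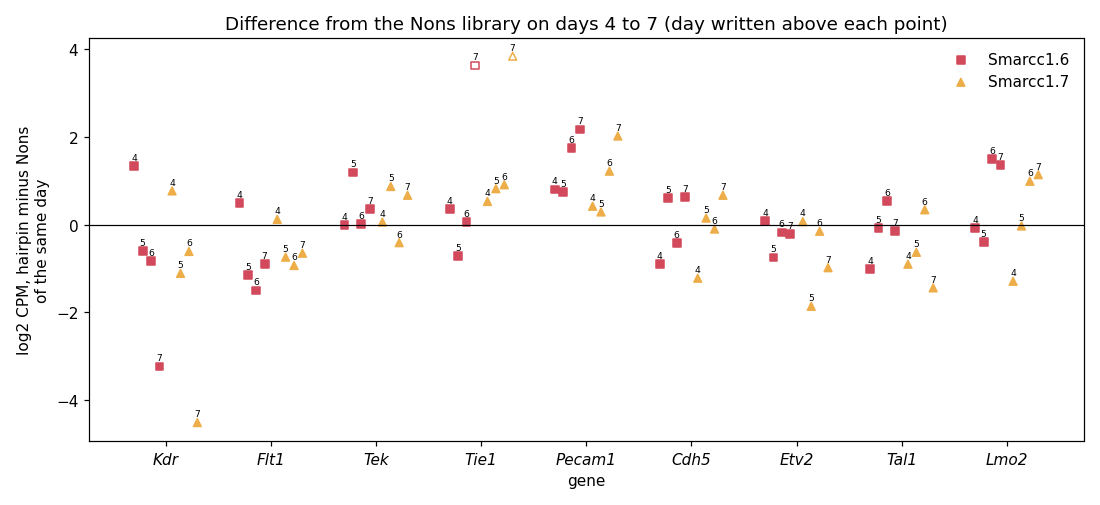
Log2 CPM of each hairpin library minus that of the Nons library of the same day (y axis) for each gene (x axis), with the day written above each point. The 8 Pecam1 points lie above 0, those of Kdr run from 1.33 on day 4 to -4.51 on day 7, and the open Tie1 points of day 7 are set against a Nons library with 0 reads, entered as 0.9 reads.

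Cdh5 (chr8:104101625-104144502, plus strand), which encodes VE-cadherin, the cadherin of endothelial junctions and the most restricted of these genes, gave few reads. Day0 had 13 reads. On days 4 to 7 there were 35, 6, 19 and 32 reads in Nons, 20, 6, 15 and 98 with Smarcc1.6, and 11, 2, 16 and 87 with Smarcc1.7. The day 5 libraries were the lowest of every group, the one with Smarcc1.7 under the 3-read floor, and day 7 was the highest. In log2 CPM the day 7 libraries were at 0.11, 0.74 and 0.78. With all 25965 genes fitted, Cdh5 rose by 0.77 ± 0.25 per day (limma, adjusted p = 0.0281), in a fit that called 10072 of them. This slope was not recomputed with a day or library left out. The knockdown difference of Cdh5 was -0.07 ± 0.37 (limma, adjusted p = 0.913), with 4 of 8 hairpin libraries above Nons.

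The transcription factors Etv2, Tal1 and Lmo2 passed through a maximum on day 5 or 6. Etv2 (chr7:30633616-30635852, minus strand) encodes the ETS factor at the head of endothelial and blood specification. It was at -0.39 in Day0, from 17 reads. The log2 CPM on days 4 to 7 was 0.58, 2.51, 2.19 and 0.36 in Nons, 0.65, 1.76, 2.01 and 0.15 with Smarcc1.6, and 0.64, 0.65, 2.04 and -0.62 with Smarcc1.7. The 3 groups were level on day 4 and again on day 6, and apart on day 5, where the Nons library was 3.82 times its day 4 level and the Smarcc1.7 library, on 22 reads, 1.01 times its own. All groups were lowest on day 7. The knockdown difference was -0.50 ± 0.27, interval -1.08 to 0.09 (limma, adjusted p = 0.251).

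Tal1 (chr4:115056426-115071755, plus strand) encodes the helix-loop-helix factor without which no blood forms. Its first promoter is shown because it holds the only GATA letters among the 7 promoter windows found for 6 of the members, in capitals, here on the reverse strand (GRCm38.p6, plus strand). AGATAA occurred in 9.99% of all windows.
Tal1 (chr4:115056176-115056425): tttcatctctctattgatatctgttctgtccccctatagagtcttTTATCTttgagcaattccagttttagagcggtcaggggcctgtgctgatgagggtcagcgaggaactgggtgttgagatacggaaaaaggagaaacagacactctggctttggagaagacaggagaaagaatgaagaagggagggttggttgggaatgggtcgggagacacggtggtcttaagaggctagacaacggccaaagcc
Day0 had 0 Tal1 reads, which allows up to 3 reads, a log2 CPM of -2.89. From day 4 to day 7 the log2 CPM was 1.43, 1.63, 0.29 and -0.64 in Nons, with Smarcc1.6 0.42, 1.55, 0.83 and -0.79, and with Smarcc1.7 0.53, 1.00, 0.62 and -2.08. Day 5 was the highest and day 7 the lowest of each group, and the last Smarcc1.7 library held 12 reads. Tal1 fell by 0.67 ± 0.20 per day on the log2 scale (limma, adjusted p = 0.0129), a call lost without the Smarcc1.7 library of day 7 (-0.49, adjusted p = 0.0507) and, with a change of -0.11 (adjusted p = 0.684), without day 7. Its knockdown difference was -0.42 ± 0.29, interval -1.05 to 0.22 (limma, adjusted p = 0.383).

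Lmo2 (chr2:103957986-103981878, plus strand) encodes the LIM protein that bridges TAL1 and GATA factors on DNA. It was at 0.95 in Day0, from 43 reads. The Nons libraries gave 0.84, 2.33, 1.29 and -0.80, those with Smarcc1.6 0.77, 1.94, 2.79 and 0.55, and those with Smarcc1.7 -0.44, 2.30, 2.28 and 0.33. All groups were higher on day 5 than on day 4, and on days 6 and 7 both hairpin libraries lay above Nons, by 0.99 to 1.5 log2 units. Over 4 days the knockdown difference was 0.40 ± 0.33, interval -0.33 to 1.13 (limma, adjusted p = 0.475), and the interaction with day 0.72 ± 0.61 (limma, adjusted p = 1).

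A slope over 4 days cannot describe a gene with a maximum between, so day 5 was also compared with day 4, and day 7 with day 5, over the 3 groups. These contrasts were chosen after the values were seen. From day 4 to day 5, 3 of 7 tested members rose, Lmo2 by 1.80 ± 0.45 (limma, adjusted p = 0.0119), Flt1 by 1.16 ± 0.28 (adjusted p = 0.0111) and Etv2 by 1.02 ± 0.34 (adjusted p = 0.0407), and 0 fell, where 18.9% of all genes rose and 12.1% fell. Without the Nons library of day 5 none of the 3 was called. Among the others, Kdr had an unadjusted p under 0.05, at -1.99 ± 0.77 (limma, adjusted p = 0.0716), and voom weights gave 3 calls. From day 5 to day 7 Flt1 rose by 3.84 ± 0.28 (limma, adjusted p = 1.96e-06) and 5 members fell, where 35.1% of all genes rose and 30.7% fell. The log2 changes were -2.96 for Pecam1, -2.57 for Tal1, -2.16 for Lmo2, -1.68 for Etv2 and -1.47 for Tek, with adjusted p (limma) from 8.83e-06 for Pecam1 to 0.00147 for Lmo2. Kdr gave 0.02 ± 0.77 over these days, the mean of 2.03 in Nons, -0.60 with Smarcc1.6 and -1.36 with Smarcc1.7. Centring each library on its autosomal median shifted every day 7 against day 5 value by -0.19 and turned the sign of Kdr only.

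Levels were compared between genes per kilobase of exon. On day 4 Pecam1, at 6.72 to 11.7 CPM per kb over the 3 groups, lay above all others. Etv2 (1.43 to 1.5), Tek (1.44 to 1.51) and Kdr (0.62 to 1.56) overlapped, as did Kdr with Lmo2 (0.339 to 0.83) and Lmo2 with Tal1 (0.305 to 0.617). Flt1 (0.186 to 0.262) came next, above Cdh5 and Tie1, which overlapped. By day 6 Etv2 (3.84 to 4.36), Pecam1 (1.56 to 5.28), Flt1 (1.40 to 3.95) and Lmo2 (1.13 to 3.20) came first, each overlapping the next, with Kdr (0.0565 to 0.101) among the lowest. On day 7 Flt1, at 5.29 to 9.77, stood clear of Pecam1 (0.373 to 1.69) and of the rest. Etv2 (0.620 to 1.22), Kdr (0.0676 to 1.54), Lmo2 (0.265 to 0.677) and Tek (0.379 to 0.602) overlapped. Tie1 (0 to 0.0881) had the lowest mean and overlapped Tal1 (0.054 to 0.146) and Kdr. In Day0 Pecam1 was at 36.1 CPM per kb, Tek at 1.78, and Tal1 at 0.

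**Figure D3:**
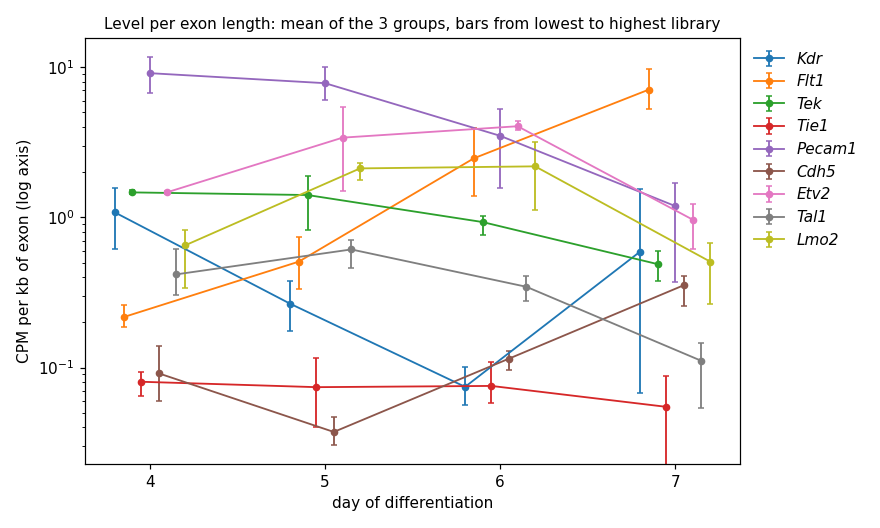
CPM per kb of exon (log axis) against day of differentiation for the 9 genes. Points are means of the 3 groups (n = 3) and bars run from the lowest to the highest library, the Tie1 bar of day 7 to 0 and so off the axis. Flt1 crosses from below Tal1 on day 4 to the top on day 7, while Pecam1 descends from 9.13 to 1.19.

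Over the 12 libraries Pecam1 and Tek had a Pearson r of 0.88, and each ran opposite to Flt1 (-0.92 and -0.90). Tal1 had an r of 0.70 with each of Pecam1, Tek and Etv2, of 0.59 with Lmo2 and of -0.74 with Flt1. Etv2 and Lmo2 had an r of 0.70, and Kdr had none above 0.17 with any other and -0.61 with Lmo2. These values are descriptions, since the libraries share days and controls. The genes most like Flt1 were Rab32 and Pla2g15 (r = 0.996) and Tpm1 (0.995), and 1821 genes reached an r of 0.9 with it. Closest to Pecam1 were 1700019A02Rik (0.994), Lrrc15 (0.991) and Rhox13 (0.989), with 576 genes at 0.9. Rarer courses had fewer like them: 6 genes at 0.9 for Kdr, led by Mob1a (0.934), Vps4b (0.929) and Snap29 (0.928), and 15 for Etv2, led by Exoc8 (0.957), Cox11 (0.930) and Snhg3 (0.928). For Lmo2 there were 27, led by Mpi (0.960), Nespas (0.957) and Aqr (0.950), for Tek 306, led by Mpv17l (0.966), Ccdc25 (0.962) and Snx11 (0.957), and for Tal1 243, led by Mrpl37 (0.981), Morc2a (0.973) and Atp5g3 (0.971).

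Other genes of the same pathways were taken from fixed lists. Over all genes tested, 6.88% were called higher and 4.77% lower in the knockdown. With day, 34.9% of all genes rose and 25.6% fell. Of 11 VEGF and angiopoietin ligands and co-receptors, 7 were tested and 0 were called in the knockdown (limma), with 3 at an unadjusted p under 0.05, the lowest adjusted p being that of Vegfa (0.54, limma, adjusted p = 0.0528). With day, 4 rose, namely Vegfa by 1.48, Pgf, a ligand of FLT1, by 1.36, Flt4 by 1.18 and Vegfb by 0.62 per day, and Vegfc and Figf fell by 1.06 and 0.43. Of 16 other transcription factors of blood and endothelium, 10 were tested. In the knockdown Gata2 fell by 0.57 (limma, adjusted p = 0.0156) and Sox17 by 0.88 (adjusted p = 0.0369), while Sox18 rose by 1.18 (adjusted p = 0.0486). Over the 4 days 6 of the 10 rose, led by Ets1 at 1.53 per day, and 1 fell.

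Of 20 other endothelial surface and secreted genes 12 were tested, and 1 was called in the knockdown, Mmrn2, which encodes an extracellular matrix protein, higher by 1.54 (limma, adjusted p = 0.00466). Over the 4 days 3 rose and 6 fell, where 34.9% of all genes rose and 25.6% fell. The largest fall was that of Robo4, the endothelial roundabout receptor, at -2.09 per day. The sialomucin gene Emcn had 0 reads in all 13 libraries, and the adhesion receptor gene Eltd1 at most 1. The summed level of the 20 genes was 157 CPM in Day0, 131 to 189 in Nons, 141 to 227 with Smarcc1.6 and 142 to 208 with Smarcc1.7. Others of the list were far above the floor in some libraries of days 4 to 7. Robo4 had 20 to 4272 reads, Mmrn2 14 to 1546 and Aplnr, which was not tested, 0 to 1129. Eng, Egfl7 and Ramp2 had at least 330, 207 and 891 reads in every library of days 4 to 7. Cdh5 had 2 to 98 reads and Tie1 0 to 26 on those days. Of 10 primitive blood genes 2 were tested. Neither was called in the knockdown (limma), with 1 at an unadjusted p under 0.05, and with day Itga2b rose by 0.84 and Kit fell by 0.98. The embryonic globin genes Hbb-y and Hbb-bh1 reached at most 3 and 5 reads. Of the 7 mural and smooth muscle markers 4 were tested, 0 were called in the knockdown (limma), with 2 at an unadjusted p under 0.05, and all 4 rose with day, Acta2 by 3.79 and Tagln by 3.40 per day.

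**Figure D4:**
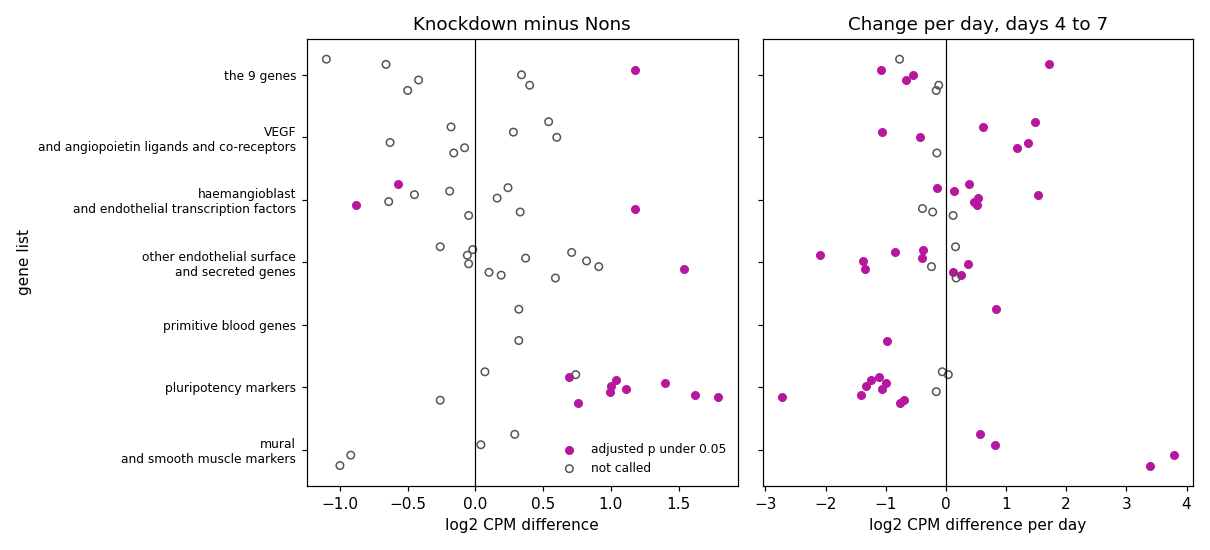
Log2 CPM difference of knockdown minus Nons (left x axis) and log2 CPM change per day (right x axis) for the tested genes of each list (y axis), each point 1 gene and filled where the limma adjusted p was under 0.05. On the left Pecam1 is the filled point of the 9 genes at 1.18 and 9 of 12 pluripotency markers are filled, and on the right Flt1 lies at 1.72.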

How the data were processed

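RNA-seq was made by the authors as TruSeq libraries, 75 bp paired-end on a NextSeq500, trimmed, aligned to mm10 masked at the positions that differ between the parental strains, and counted per gene in Seqmonk. The methods name tophat or hisat2, and the submitters' processing notes list TopHat2 2.0.12 and bcl2fastq. The strand setting and annotation release were not given in the sources used here. The authors deposited log2 CPM values, in which 0 reads are written as 0.9 reads, which bears on differences of genes near the floor. Reads and depth were recovered from the steps of these values, of which 100% of those tested were whole within 0.02 reads. Depth ran from 13993440 to 63548092 mapped reads.

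The sample labels gave the groups and days. The 13406 genes that averaged a log2 CPM of 0 or more on days 4 to 7 were fitted with limma 3.58.1 in R 4.3.3 (lmFit, eBayes with trend). Knockdown and each hairpin were fitted with day as a factor, and the change per day and the contrasts of days with group as a covariate. P-values are two-sided and Benjamini-Hochberg adjusted over all genes tested, with a threshold of 0.05. The fits were tested on simulated data. Exon lengths and overlaps came from GENCODE M21 and promoters from RefSeq (GRCm38.p6). Guides came from the study's oligonucleotide list. Python 3.11.15, numpy 2.4.6, pandas 2.3.3, scipy 1.17.1 and matplotlib 3.10.9 were used.

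The members, gene lists, motifs and tests were chosen with earlier results of these data known. Named were all 9 members, Smarcc1, the list genes called in the knockdown (at most 4 a list, by adjusted p), and the 3 genes with the highest Pearson r to each tested member over 12 libraries. Genes named from the lists for any other reason, such as their change with day, a lowest adjusted p, the lack of a call or few reads, were chosen after their values were seen. Alternatives were other filters, log2(CPM + 1), no variance trend, voom weights on recovered reads, centring, thinning to the smallest depth, leaving out days and libraries, no day block, and single hairpins.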

Additional observations from a re-analysis of the deposited data

Results flagged for a closer look

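A library far from the other 3 of its group was found in 2 of 27 groups of 4 libraries. For Tie1 it was the Nons library of day 7, at a log2 CPM of -5.04 (0 reads, entered as 0.9). For Tal1 it was the Smarcc1.7 library of day 7, at -2.08 (12 reads). Among replicates chance would give about 1 in 20, or 1.35. That rate cannot be used here, because a group is a time course with 1 library a day. Tal1 was lowest on day 7 in every group.

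For 6 members both hairpins lay on one side of Nons on some days and on the other side on other days. Both hairpins are set against the same Nons library of a day, and these differences were not tested beyond the interaction with day, in which no member was called. For Kdr the mean difference was 1.05 on day 4 and -1.82 over days 5 to 7. For Flt1 it was 0.30 on day 4 and -0.98 over days 5 to 7. For Etv2 it was 0.08 on day 4 and -0.69 over days 5 to 7. For Lmo2 it was -0.45 over days 4 and 5 and 1.25 over days 6 and 7. For Tal1 it was 0.44 on day 6 and -0.70 over the other days. For Cdh5, at few reads, it was 0.52 over days 5 and 7 and -0.66 over days 4 and 6.

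The Day0 library, outside every comparison, lay above all 4 Nons libraries for Pecam1, at 7.81, and for Tek, at 3.07.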

How the results depend on the processing

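Of 724 values of single members recomputed under the alternatives, 659 kept their direction and their side of the threshold, 26 lost a call, 24 gained one and 15 turned their sign. In the knockdown fit 1 member was called, against 2 with log2(CPM + 1) and with voom weights, 0 without the day block and 0 with either hairpin by itself, and 0 to 3 on leaving out a day or library (0 without day 6, 3 without the Nons library of day 4). Without the day block Pecam1 had an adjusted p of 1. For Smarcc1.6 the count of 1 became 2 with voom weights, 0 without the day block and 0 to 2 with a day or library left out. For Smarcc1.7 the count of 0 became 1 with no filter and with log2(CPM + 1), and 0 to 2 with a day or library left out. The 4 members called in the change per day became 2 in Nons alone and 3 to 5 with a day or library left out. From day 4 to day 5 the 3 calls became 1 with a filter at a mean log2 CPM of 2, 1 after thinning, and 0 to 4 with a library or day left out. From day 5 to day 7 the 6 calls became 3 with that filter, which leaves out Tal1, Lmo2, Etv2 and Kdr, and 6 to 7 with a library or day left out. Apart from the members that this filter removes, the cause was not tested. The sign turned for Kdr per day in Nons alone (0.20), and for Kdr from day 5 to day 7 after centring (-0.17) and thinning (-0.21). With a day or library left out, Kdr per day ran from -1.90 to 0.0122, Lmo2 per day from -1.08 to 0.87, Etv2 per day from -0.84 to 0.73, Pecam1 from day 4 to day 5 from -0.51 to 0.0349, Tek from day 4 to day 5 from -0.37 to 0.17, and Kdr from day 5 to day 7 from -1.21 to 0.89. The hairpin and Nons libraries were paired by day in the fits reported, with the day as block, and replicate numbers, which follow accession order, were not used to pair them. The values of Cdh5 and Tie1 are limited by depth.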
